A study of Homo sapiens with 18 samples.

Results

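The integrated stress response regulators described here are 10 genes, ATF4, ATF3, DDIT3, CEBPB, CEBPG, TRIB3, CHAC1, SESN2, PPP1R15A and NUPR1, of 26668 gene symbols in an RNA-seq table of pancreatic cancer cells. They were selected as factors and feedback genes of the ATF4 axis whose levels rose in cells given doxycycline, so the values that selected them are the differences between doxycycline and control libraries described below. Those differences are therefore given as a description, with standard errors and without tests, and the selection set no numerical threshold. All 10 symbols were found in the table.

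The lines sequenced are 3 established human ones, PANC-1, MIA PaCa-2 and PaTu 8988T, each with 3 shControl and 3 shOFD1 libraries, 18 in all. The shOFD1 cells carried a doxycycline-switched short hairpin RNA against OFD1, which encodes a centrosome and ciliary base protein, and were collected after 72 h of doxycycline. The shControl samples are labelled wild type and untreated, whereas the study's methods describe shOFD1 cells given DMSO, so the make of the control cells was not settled here. Doxycycline was given to every shOFD1 culture and to no control culture, and its own effect cannot be told apart from that of the knockdown. The series text speaks of 0 and 3 days, and time in culture cannot be told apart from the knockdown either if the controls were taken at the start. The hairpin used for sequencing and the number of clones are not given in the sources used here. In the PaTu 8988T groups, replicates 2 and 3 carry other line names in some labels, and the sample titles were followed. The labels do not say whether replicates came from separate cultures, and the study states independent repeats for its assays in general without naming the sequencing, so the p-values below measure the spread between these samples, which may be technical.

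The integrated stress response starts with a family of kinases, encoded by EIF2AK1 to EIF2AK4, that phosphorylate the translation factor eIF2α when cells lack heme or amino acids, meet double-stranded RNA or accumulate misfolded protein. Phosphorylated eIF2 holds back its exchange factor eIF2B, which slows most protein synthesis, while short open reading frames in the leader of the ATF4 mRNA let ATF4 protein be made. ATF4 pairs with C/EBP proteins and switches on genes for amino acid supply, for the death-promoting factor CHOP (encoded by DDIT3) and for feedback, among them PPP1R15A, whose protein directs phosphatase 1 back to eIF2α. RNA was measured here, and neither eIF2α phosphorylation nor ATF4 protein is part of these values.

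OFD1 itself was lower in every shOFD1 library than in every shControl library of its line. Its level was 5.50, 5.12 and 5.67 FPKM (a count corrected for the size of the gene and of the library) in PANC-1 shControl libraries and 2.80, 2.27 and 2.58 in the shOFD1 libraries, a log2 fold change of -1.07 (SE 0.0901, limma adjusted p = 2.70e-06). In PaTu 8988T the OFD1 mean was 2.06 FPKM in controls and 0.911 with knockdown. The OFD1 change there was -1.1 (SE 0.103), or -0.68 with a pseudocount of 1 added to each FPKM in place of 0.1. OFD1 passed the filter of a mean of at least 1 FPKM in PaTu 8988T only through the shControl libraries, so its p is not given. In MIA PaCa-2 the OFD1 change was -0.61 (SE 0.159, limma adjusted p = 0.0232), and shControl replicate 2, at 2.27 FPKM, was the lowest control there. Leaving out any other MIA PaCa-2 library lost this call (limma adjusted p from 0.0608 to 0.0899), and leaving out shControl replicate 2 gave -0.76 (limma adjusted p = 8.7e-05).

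Between 32486479 and 39797537 reads were counted per library, and the regulators rested on 41 to 23651 reads each. Replicate pairs differed from each other by chi-square values per degree of freedom of 2.93 to 10.3, except for the pairs that held MIA PaCa-2 shControl replicate 2, at 108.5 and 109.2. This library was the highest of its group for 9 of the 10 regulators and the lowest for 1, CEBPG, so the MIA PaCa-2 values are given with and without it. Keratin genes KRT8 and KRT18 stood at group means of 319 to 947 FPKM. The epithelial genes EPCAM and CDH1 were at or below 0.0991 FPKM in all MIA PaCa-2 libraries, and KRT19 was at or below 0.0194 FPKM in all PaTu 8988T libraries. Of 5 markers of other cell types, INS was at 0 in every library. The leukocyte gene PTPRC was at 4.45, 2.32 and 3.76 FPKM in MIA PaCa-2 shControl libraries and at 6.22, 5.89 and 5.90 in the shOFD1 libraries. The summed level of the 5 markers ran from 2.44 to 4.55 FPKM in the MIA PaCa-2 controls and from 5.97 to 6.37 with knockdown, from 25.4 to 26.8 and 22.8 to 24.0 in PANC-1, where it was mostly COL1A1, and from 0.0686 to 0.120 and 0.0567 to 0.0651 in PaTu 8988T. Their part in the results was not tested. A rise in RNA per cell and a change in the mix of cells cannot be told apart in bulk RNA.

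Promoter sequence was available for 9 of the 10 regulators, with 16 windows of 250 bases before to 50 bases after a RefSeq start site on GRCh38.p14. The 3 motifs searched on both strands were TGATGNAA, the composite core bound by ATF4 with a C/EBP partner, TGACGTCA, the cyclic AMP response element (CRE), and TGACTCA, the AP-1 element. None of the 3 is contained in another. The composite was found in ATF3, CEBPG and CHAC1, the CRE in PPP1R15A and the AP-1 element in DDIT3. Of 35116 promoters in the RefSeq set, 3.62% held the composite, 1.85% the CRE and 4.95% the AP-1 element. The windows of 30 bases around each match are printed 5′ to 3′ on the strand of the gene, with the match in capitals, because these are the letters through which ATF4 and its partners are known to act. The window of ASNS, a textbook ATF4 target described further below, is added for comparison.
ATF3, chr1:212565205-212565234, plus strand, match 191 to 184 bases before the start: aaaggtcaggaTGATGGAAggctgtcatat
CEBPG, chr19:33374060-33374089, plus strand, match 42 to 35 bases before the start: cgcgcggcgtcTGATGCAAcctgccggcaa
CHAC1, chr15:40953251-40953280, plus strand, match on the opposite strand 209 to 202 bases before the start: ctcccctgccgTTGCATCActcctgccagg
PPP1R15A, chr19:48872352-48872381, plus strand, match 58 to 51 bases before the start: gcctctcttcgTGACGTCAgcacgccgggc
DDIT3, chr12:57520735-57520764, minus strand, match 241 to 235 bases before the start: gcgcgcgcaTGACTCAcccacctcctccgt
ASNS, chr7:97872458-97872487, minus strand, match 68 to 61 bases before the start: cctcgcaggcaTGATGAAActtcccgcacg
The CHAC1 and ASNS windows overlap exons of other annotated transcripts of the same gene, and the DDIT3 window overlaps an exon of MBD6 on the other strand. A match is a description of letters and not a measured binding site, and the absence of a match says only that these letters are not in the window.

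All 10 regulators were higher in every PANC-1 shOFD1 library than in every PANC-1 shControl library, and 4 of them more than 2-fold. Of all 10902 genes tested in this line, 41.7% did not overlap in that direction, and 1.75% were called higher at an adjusted p under 0.05 with a fold change above 2. In MIA PaCa-2, 9 of 10 did not overlap and 6 were more than 2-fold higher, beside 28.0% and 4.07% of 10758 genes. Without shControl replicate 2 these MIA PaCa-2 counts were 10 and 7. In PaTu 8988T, 9 of 10 did not overlap and 3 were more than 2-fold higher, beside 27.9% and 0.159% of 10698 genes. Because the regulators were selected on this difference, nothing is read from the counts against those shares. The median log2 fold change over the 10 regulators was 0.769 in PANC-1, 1.36 in MIA PaCa-2 and 0.604 in PaTu 8988T, and that over all genes tested was 0.06, -0.03 and 0.03. Log2 fold changes are on the scale of FPKM plus 0.1, which makes the change of a gene near 0 smaller than its ratio.

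**Figure D1:**
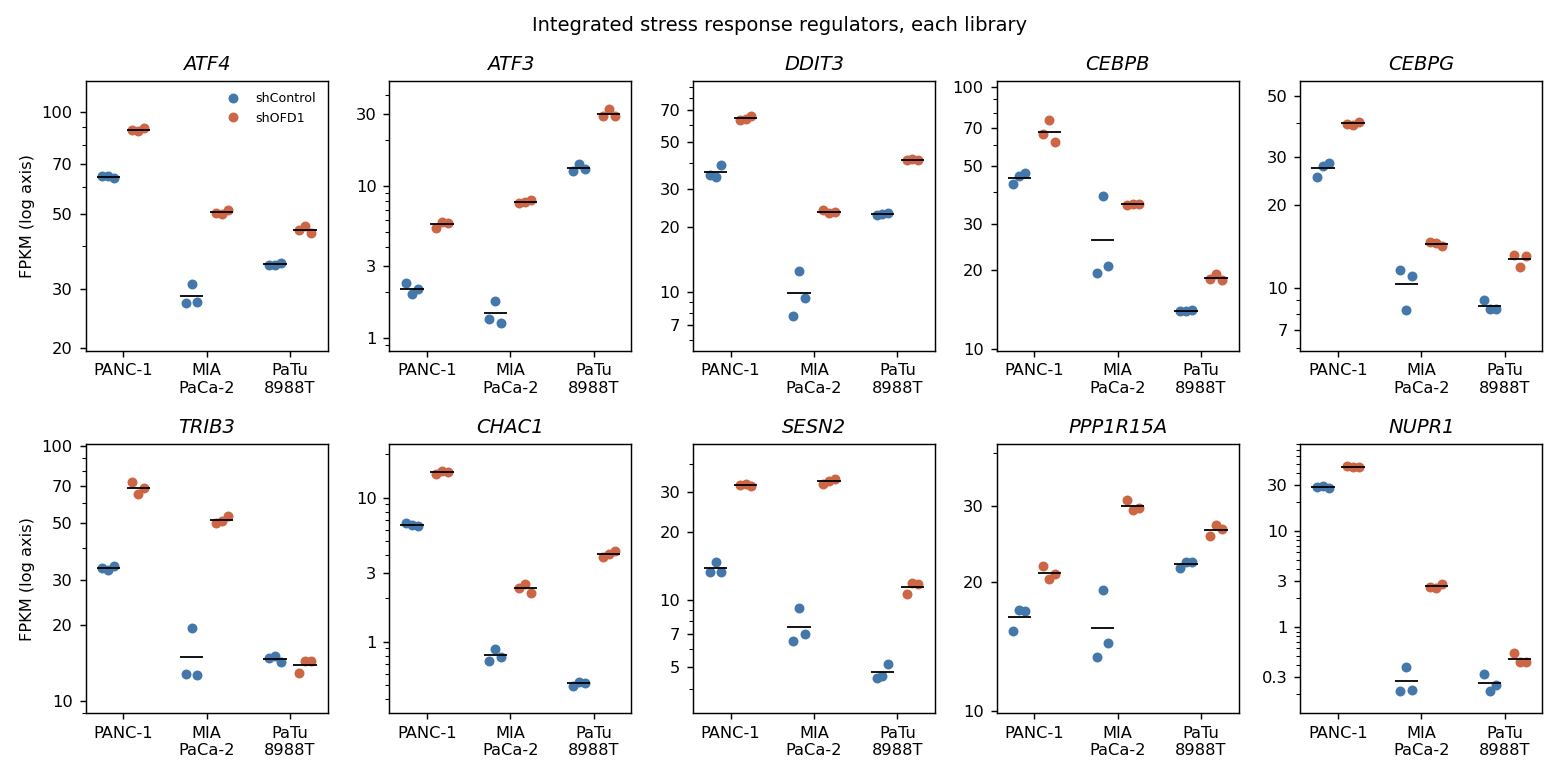
FPKM (log axis) of each regulator in each library of PANC-1, MIA PaCa-2 and PaTu 8988T, with 1 point per library, blue for shControl and orange for shOFD1, and a bar at the mean of 3 libraries. The groups overlap in 2 panels, CEBPB in MIA PaCa-2, where 1 control lies at 38.4 FPKM, and TRIB3 in PaTu 8988T.

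ATF4 is the transcription factor at the centre of the response, and its gene spans 39519695 to 39522685 of chromosome 22 (GRCh38, plus strand, as for all positions below unless the strand is given as minus). In PANC-1 cells ATF4 was at 64.5, 64.7 and 63.7 FPKM in the shControl libraries and at 88.4, 87.5 and 89.4 in the shOFD1 libraries, a log2 fold change of 0.46 (SE 0.0244). ATF4 in MIA PaCa-2 was at 27.1, 31.0 and 27.4 FPKM and then at 50.1, 49.9 and 51.2, a log2 fold change of 0.82 (SE 0.0795). ATF4 in PaTu 8988T was at 35.2, 35.3 and 35.8 FPKM and then at 44.6, 45.9 and 43.9, a log2 fold change of 0.34 (SE 0.0362). The groups did not overlap in any line, and the change was below 2-fold in all 3. The MIA PaCa-2 change exceeded that of PANC-1 by 0.37 (SE 0.0832) and that of PaTu 8988T by 0.49 (SE 0.0874). The gene length behind the FPKM, recovered from the steps between values, was 7713 bases in PANC-1 and 7716 in the other lines, against 2514 bases of annotated exons. Genes that ATF4 is known to switch on lay on both sides of its own mRNA change. ATF3, CHAC1 and SESN2 changed more than ATF4 in every line. PPP1R15A changed less in PANC-1 (0.34) and PaTu 8988T (0.26) but more in MIA PaCa-2 (0.96). TRIB3 changed less in PaTu 8988T (-0.08) and more in the other lines.

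ATF3 is a bZIP factor of the same family that ATF4 induces, on chromosome 1 from 212565334 to 212620777. In PANC-1 cells ATF3 was at 2.29, 1.95 and 2.09 FPKM and then at 5.34, 5.81 and 5.70, a log2 fold change of 1.37 (SE 0.0836). ATF3 in MIA PaCa-2 was at 1.34, 1.75 and 1.26 FPKM and then at 7.76, 7.81 and 8.14, a log2 fold change of 2.38 (SE 0.141). ATF3 in PaTu 8988T was at 12.5, 13.9 and 13.0 FPKM and then at 28.9, 32.2 and 29.1, a log2 fold change of 1.19 (SE 0.0577). ATF3 was more than 2-fold higher in all 3 lines, with no overlap, and its change in MIA PaCa-2 exceeded that in PANC-1 by 1.01 (SE 0.164) and that in PaTu 8988T by 1.20 (SE 0.153). The highest shOFD1 level of MIA PaCa-2 still lay below the lowest shControl level of PaTu 8988T, 8.14 against 12.5 FPKM.

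DDIT3, which encodes CHOP, a factor of prolonged stress and cell death, lies on chromosome 12 from 57516588 to 57521737, minus strand. In PANC-1 cells DDIT3 was at 34.9, 34.4 and 38.8 FPKM and then at 63.2, 64.0 and 66.2, a log2 fold change of 0.84 (SE 0.0453). DDIT3 in MIA PaCa-2 was at 7.72, 12.5 and 9.37 FPKM and then at 24.0, 23.3 and 23.7, a log2 fold change of 1.28 (SE 0.171). DDIT3 in PaTu 8988T was at 22.8, 23.0 and 23.3 FPKM and then at 41.3, 41.4 and 41.2, a log2 fold change of 0.84 (SE 0.0356). The groups were apart in each line, and the changes in PANC-1 and PaTu 8988T had a difference of -0.00142 (SE 0.0576). The annotated exons of DDIT3 overlap those of AC022506.1 on the same strand and of MARS and MBD6 on the opposite strand, and whether reads were counted by strand is not given in the sources used here, so the split of reads between them is uncertain.

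CEBPB and CEBPG encode C/EBP partners with which ATF4 forms pairs, CEBPB on chromosome 20 from 50190734 to 50192689 and CEBPG on chromosome 19 from 33373330 to 33382686, both on plus strands. In PANC-1 cells CEBPB was at 42.7, 45.7 and 47.0 FPKM and then at 66.2, 74.8 and 61.6, a log2 fold change of 0.58 (SE 0.0638). CEBPB in PaTu 8988T was at 13.9, 14.0 and 14.1 FPKM and then at 18.5, 19.4 and 18.3, a log2 fold change of 0.42 (SE 0.0426). CEBPB in MIA PaCa-2 was at 19.5, 38.4 and 20.8 FPKM in the controls and at 35.4, 36.0 and 35.7 with knockdown. Here shControl replicate 2 stood above every shOFD1 library, so the groups overlapped, while the mean rose from 26.2 to 35.7 FPKM. Its log2 fold change of 0.52 (SE 0.249) became 0.83 (SE 0.032) without that library. Exons of CEBPB overlap those of CEBPB-AS1 on the opposite strand.

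In PANC-1 cells CEBPG was at 25.4, 27.9 and 28.5 FPKM and then at 39.7, 39.3 and 40.4, a log2 fold change of 0.54 (SE 0.0442). CEBPG in MIA PaCa-2 was at 11.6, 8.27 and 11.0 FPKM and then at 14.7, 14.6 and 14.2, a log2 fold change of 0.50 (SE 0.138). CEBPG in PaTu 8988T was at 9.01, 8.38 and 8.38 FPKM and then at 13.2, 11.9 and 13.1, a log2 fold change of 0.56 (SE 0.0574). The differences in the CEBPG change between lines ran from -0.0548 to -0.0143, each smaller than its SE. Without shControl replicate 2 the MIA PaCa-2 change was 0.36 (SE 0.0353), which lay -0.19 (SE 0.0566) from that of PANC-1 and -0.20 (SE 0.0674) from that of PaTu 8988T.

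TRIB3, a pseudokinase that ATF4 and CHOP induce and that holds both back, lies on chromosome 20 from 362835 to 397559. In PANC-1 cells TRIB3 was at 33.4, 32.7 and 34.0 FPKM and then at 72.0, 64.7 and 68.2, a log2 fold change of 1.03 (SE 0.0403). TRIB3 in MIA PaCa-2 was at 12.8, 19.3 and 12.7 FPKM and then at 50.003, 50.7 and 53.0, a log2 fold change of 1.80 (SE 0.168). TRIB3 in PaTu 8988T was at 14.8, 15.1 and 14.3 FPKM in the controls and at 12.9, 14.4 and 14.3 in the shOFD1 libraries. TRIB3 was the only one of the 10 whose log2 fold change was below 0 in any line, at -0.08 (SE 0.054) in PaTu 8988T with overlapping groups, against the rule that selected it. The difference to PANC-1 was 1.11 (SE 0.0673) and to MIA PaCa-2 1.88 (SE 0.176).

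CHAC1 encodes an enzyme that breaks down glutathione and is a target of ATF4, on chromosome 15 from 40952962 to 40956519. CHAC1 in PaTu 8988T was at 0.490, 0.527 and 0.519 FPKM in the controls and at 3.88, 4.07 and 4.24 with knockdown, a log2 fold change of 2.77 (SE 0.0934) and a ratio of 7.93. In PANC-1 cells CHAC1 was at 6.71, 6.41 and 6.37 FPKM and then at 14.6, 15.3 and 15.2, a log2 fold change of 1.20 (SE 0.0489). CHAC1 in MIA PaCa-2 was at 0.735, 0.884 and 0.787 FPKM and then at 2.36, 2.51 and 2.16, a log2 fold change of 1.44 (SE 0.127). CHAC1 had the largest change of the 10 in PaTu 8988T, the line in which the TRIB3 groups overlapped, and that change exceeded those of PANC-1 and MIA PaCa-2 by 1.57 (SE 0.105) and 1.33 (SE 0.158). In MIA PaCa-2 and PaTu 8988T it passed the filter on low values through its shOFD1 libraries, and with a pseudocount of 1 its changes there were 0.89 and 1.74. The recovered gene length was 3722 bases in PANC-1 and 6081 in the other lines, against 2058 bases of annotated exons, so CHAC1 levels cannot be set against each other between PANC-1 and the others.

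SESN2, a sestrin that senses leucine and restrains the growth kinase complex mTORC1, lies on chromosome 1 from 28259527 to 28282491. In PANC-1 cells SESN2 was at 13.3, 14.6 and 13.3 FPKM and then at 32.3, 32.5 and 32.0, a log2 fold change of 1.23 (SE 0.0448). SESN2 in MIA PaCa-2 was at 6.57, 9.16 and 7.01 FPKM and then at 32.8, 33.7 and 34.2, a log2 fold change of 2.15 (SE 0.134). SESN2 in PaTu 8988T was at 4.49, 4.59 and 5.17 FPKM and then at 10.6, 11.8 and 11.7, a log2 fold change of 1.24 (SE 0.0709). SESN2 was more than 2-fold higher in all 3 lines, as ATF3 and CHAC1 were, though CHAC1 in MIA PaCa-2 was below 2-fold with a pseudocount of 1. The mean control levels of PANC-1 and MIA PaCa-2 were 13.7 and 7.58 FPKM, and their mean shOFD1 levels 32.3 and 33.6.

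PPP1R15A encodes GADD34, the stress-induced subunit that brings phosphatase 1 to eIF2α, on chromosome 19 from 48872392 to 48876057. In PANC-1 cells PPP1R15A was at 15.4, 17.2 and 17.1 FPKM and then at 21.7, 20.3 and 20.9, a log2 fold change of 0.34 (SE 0.0524). PPP1R15A in MIA PaCa-2 was at 13.3, 19.1 and 14.3 FPKM and then at 31.0, 29.5 and 29.8, a log2 fold change of 0.96 (SE 0.141). PPP1R15A in PaTu 8988T was at 21.5, 22.3 and 22.2 FPKM and then at 25.6, 27.1 and 26.5, a log2 fold change of 0.26 (SE 0.0407). It had the smallest change of the 10 in PANC-1, while in MIA PaCa-2 its change was 0.62 (SE 0.15) above that in PANC-1 and passed 2-fold without shControl replicate 2, at 1.12 (SE 0.0407).

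NUPR1, a small stress-induced chromatin protein first known from the pancreas, lies on chromosome 16 from 28532708 to 28539174, minus strand. In PANC-1 cells NUPR1 was at 29.1, 29.6 and 28.1 FPKM and then at 47.8, 47.2 and 46.3, a log2 fold change of 0.70 (SE 0.0331). NUPR1 in MIA PaCa-2 was at 0.215, 0.381 and 0.220 FPKM and then at 2.65, 2.56 and 2.85, a log2 fold change of 2.93 (SE 0.194) and the largest of the 10 in that line with a pseudocount of 0.1. With a pseudocount of 1 the NUPR1 change there was 1.54 and that of ATF3 1.87. NUPR1 in PaTu 8988T was at 0.324, 0.218 and 0.247 FPKM and then at 0.532, 0.436 and 0.432, a log2 fold change of 0.65 (SE 0.174), or 0.22 with a pseudocount of 1. The groups did not overlap, but the mean in PaTu 8988T was under the 1 FPKM filter, so NUPR1 is the regulator that did not enter the fit over all genes there, and it passed in MIA PaCa-2 only through its shOFD1 libraries. Its lowest value rested on 41 reads.

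Without shControl replicate 2 the MIA PaCa-2 log2 fold changes of 7 other regulators were larger as well, at 0.88 for ATF4, 2.52 for ATF3, 1.46 for DDIT3, 2.0 for TRIB3, 1.5 for CHAC1, 2.29 for SESN2 and 3.13 for NUPR1. CEBPG was the 1 regulator whose change was smaller without that library.

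**Figure D2:**
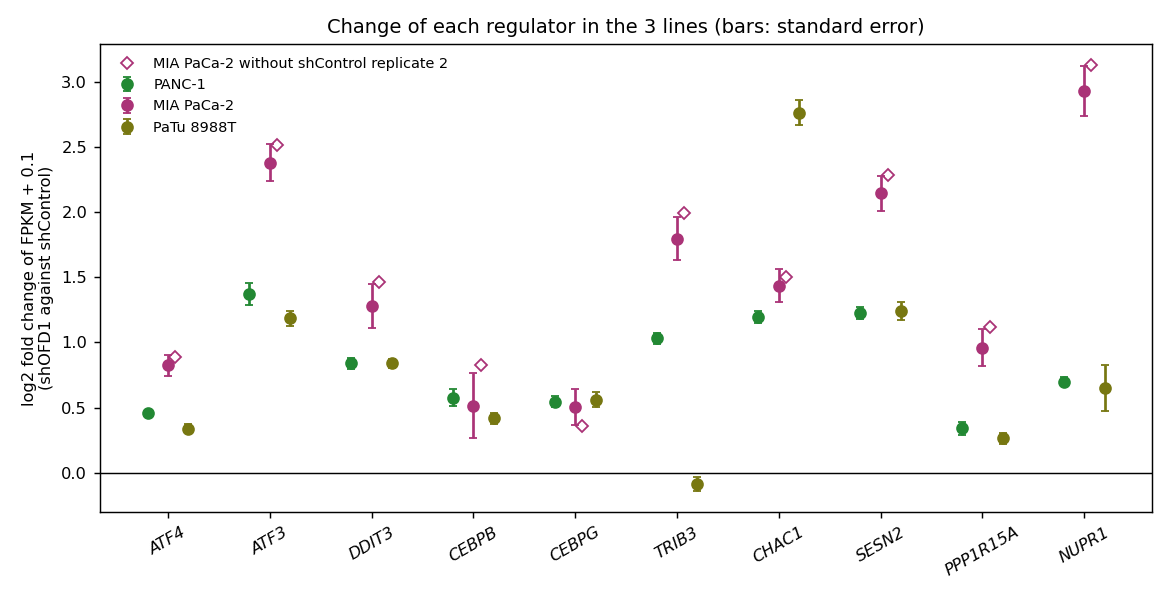
Log2 fold change of FPKM + 0.1 (shOFD1 against shControl) of each regulator in PANC-1, MIA PaCa-2 and PaTu 8988T, with bars of 1 standard error over 3 libraries against 3, and open diamonds for MIA PaCa-2 without shControl replicate 2. TRIB3 in PaTu 8988T lies at -0.08, CHAC1 there at 2.77, and NUPR1 in MIA PaCa-2 at 2.93.

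The levels before knockdown were set side by side in MIA PaCa-2 and PaTu 8988T, the pair of lines whose recovered gene lengths were the same for all 10 regulators and for 15243 of 15859 genes. The control values are part of the differences that selected the regulators, so they too are a description without tests. Of 10221 genes that passed the filter between the shControl libraries, 39.1% lay above PaTu 8988T in MIA PaCa-2 without overlap and 35.8% below. Of the 10 regulators, CEBPB, SESN2 and CHAC1 lay above, ATF4, ATF3, DDIT3 and PPP1R15A below, and 3 overlapped. CHAC1 and NUPR1 were under 1 FPKM in both control groups. ATF3 had the largest difference, at 1.45 ± 0.266 FPKM in MIA PaCa-2 and 13.2 ± 0.712 in PaTu 8988T (SD, n = 3 each), a log2 difference of -3.11 (SE 0.142). DDIT3 had a log2 difference of -1.24 (SE 0.172), PPP1R15A one of -0.51 (SE 0.142) and ATF4 one of -0.32 (SE 0.0821). SESN2 stood higher in MIA PaCa-2 by 0.65 (SE 0.148) and CEBPB by 0.83 (SE 0.251). CEBPG and TRIB3 overlapped, with log2 differences of 0.24 (SE 0.143) and -0.00308 (SE 0.171). Without MIA PaCa-2 shControl replicate 2, CEBPG lay above PaTu 8988T by 0.39 (SE 0.0536), TRIB3 lay below it by a log2 difference of -0.20 (SE 0.0415), and neither overlapped.

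**Figure D3:**
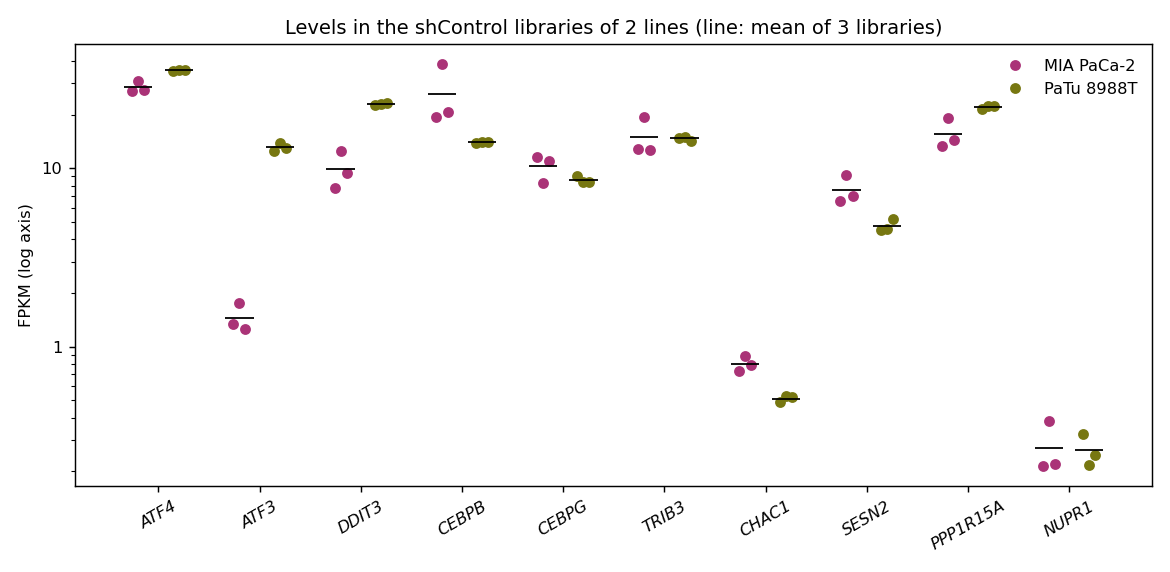
FPKM (log axis) of each regulator in the shControl libraries of MIA PaCa-2 and PaTu 8988T, with 1 point per library and a bar at the mean of 3. ATF3 stands at 1.45 FPKM in MIA PaCa-2 and 13.2 in PaTu 8988T, while TRIB3 overlaps between the lines.

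PANC-1 shared recovered gene lengths with PaTu 8988T for 7 of the 10 regulators (7109 of 13493 genes), and these 7 were ordered over all 3 lines. ATF4, with lengths of 7713 and 7716 bases, can be ordered too. Its controls were at 63.7 to 64.7 FPKM in PANC-1, 27.1 to 31.0 in MIA PaCa-2 and 35.2 to 35.8 in PaTu 8988T. DDIT3 and CHAC1 were left out, with lengths of 908 and 3722 bases in PANC-1 against 1178 and 6081 in the other lines. CEBPB, CEBPG, TRIB3, SESN2 and NUPR1 were highest in the PANC-1 controls, above every control library of the other lines. ATF3 and PPP1R15A were instead highest in the PaTu 8988T controls. The share of all genes that lay apart in this way over the 3 lines was not computed, so nothing is read from this order. Between MIA PaCa-2 and PaTu 8988T controls, 39.1% of genes lay above and 35.8% below without overlap. MIA PaCa-2 and PaTu 8988T controls overlapped for CEBPG, TRIB3 and NUPR1, and PANC-1 and MIA PaCa-2 controls overlapped for PPP1R15A. NUPR1 spanned the widest range, with controls at 28.1 to 29.6 FPKM in PANC-1 and 0.215 to 0.381 in the 6 other control libraries. In the shOFD1 libraries PPP1R15A was highest in MIA PaCa-2, at 29.5 to 31.0 FPKM, against 25.6 to 27.1 in PaTu 8988T and 20.3 to 21.7 in PANC-1.

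The rest of the pathway was followed in 6 lists of 91 genes, namely eIF2α kinases and their activators, the eIF2, eIF2B and phosphatase subunits, factors of ATF4 translation and turnover, bZIP partners, paralogues of the regulators, and further ATF4 and CHOP targets. In PANC-1, 39 of 82 tested were called higher and 28 lower, beside 40.1% and 32.2% of all genes tested. With a fold change above 2 or below 0.5, 3 were higher and 5 lower, beside 1.75% and 4.84% of all genes. In MIA PaCa-2, 27 of 81 were higher and 11 lower, beside 18.7% and 21.7%, and 9 and 1 passed the fold threshold, beside 4.07% and 3.68%. Without shControl replicate 2, 43 were higher and 26 lower there, beside 35.4% and 39.8% of all genes. In PaTu 8988T, 29 of 78 were higher and 14 lower, beside 20.9% and 18.5%, and 0 and 1 passed the fold threshold, beside 0.159% and 0.841%. The 29 higher in PaTu 8988T by limma therefore all changed less than 2-fold. Over the 75 genes tested in every line, 8 were called higher in all 3 (CEBPD, EIF1, EIF2AK4, MTHFD2, PHGDH, SHMT2, USP11 and WARS1) and 3 lower in all 3 (ATF6, FOSL1 and SIAH2), beside 2.74% and 3.71% of the 9083 genes tested in every line. The lists were chosen with earlier results of these data known. Counted among the calls are ASNS and FOSB in MIA PaCa-2 and BATF3 in PANC-1. They passed the filter only through the group in which they were higher. ASNS is among those more than 2-fold higher and BATF3 among those more than 2-fold lower. The same shares of all genes stand beside the counts of single lists below. EIF2AK4, SHMT2, USP11, WARS1 and FOSL1 lost their call in at least 1 line under another setting or without 1 library, and the other 6 kept theirs in every setting in which they were tested.

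**Figure D4:**
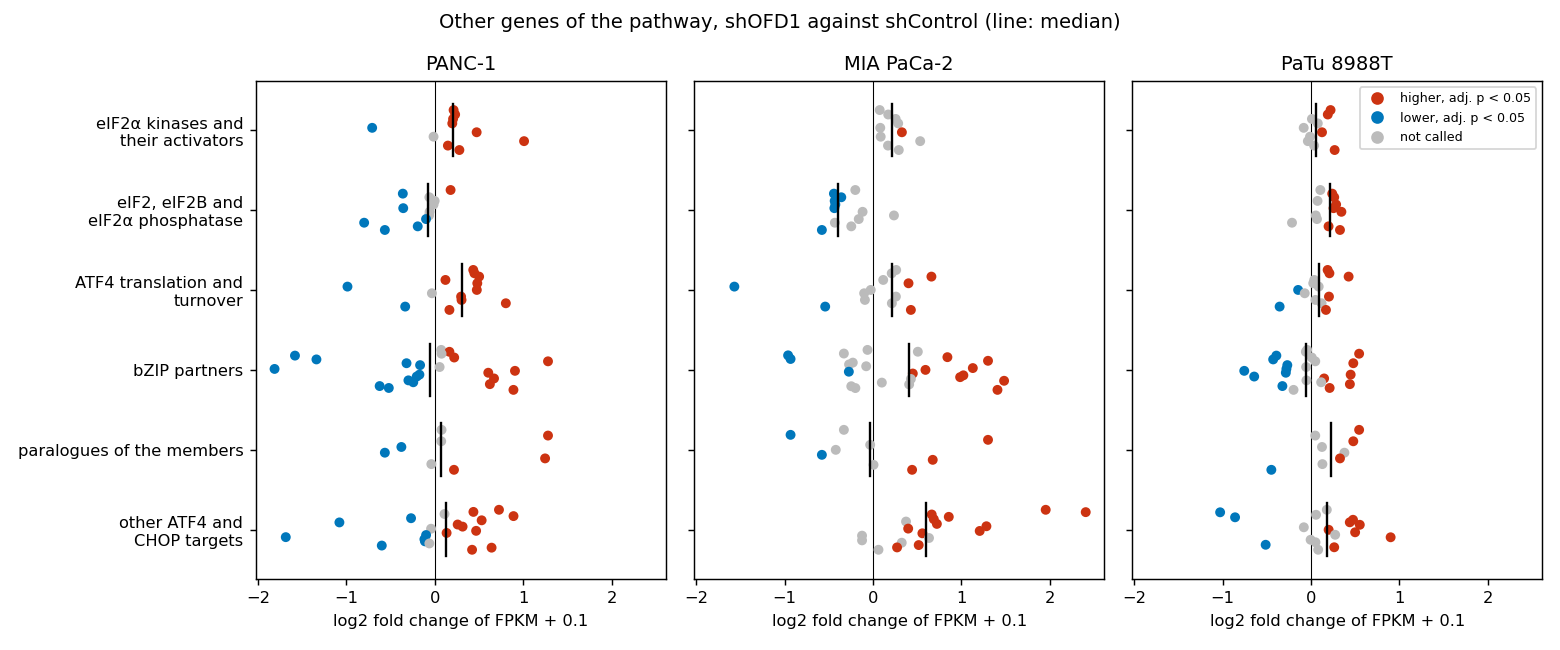
Log2 fold change of FPKM + 0.1 of each tested gene of the 6 lists in PANC-1, MIA PaCa-2 and PaTu 8988T, with red for genes called higher, blue for genes called lower, grey for genes not called at a limma adjusted p under 0.05, and a black line at the median of the list. The eIF2, eIF2B and phosphatase list has its median at -0.391 in MIA PaCa-2 and at 0.22 in PaTu 8988T.

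Upstream of ATF4, 8 of 10 genes of the kinase list were called higher and 1 lower in PANC-1, beside 40.1% and 32.2% of all genes tested. MIA PaCa-2 had 1 higher and 0 lower, beside 18.7% and 21.7%, and PaTu 8988T 4 and 0, beside 20.9% and 18.5%. The list medians were 0.21, 0.215 and 0.0566 in the 3 lines. At an unadjusted p under 0.05 the limma fits also had 0 lower in MIA PaCa-2 and PaTu 8988T. The share of all genes at that threshold, here and below, was not computed. In MIA PaCa-2 without shControl replicate 2, 6 were higher, beside 35.4% of all genes. EIF2AK4, the kinase GCN2 that responds to uncharged tRNA, was called higher in every line, by 0.47 (SE 0.0558), 0.33 (SE 0.0919) and 0.13 (SE 0.0374) in PANC-1, MIA PaCa-2 and PaTu 8988T. The MIA PaCa-2 call (limma adjusted p = 0.0294) was lost without shControl replicate 1 or any 1 shOFD1 replicate, with limma adjusted p from 0.0574 to 0.109. Its PaTu 8988T call (limma adjusted p = 0.0254) was lost without shControl replicate 1 or 2 or shOFD1 replicate 3, with limma adjusted p from 0.0829 to 0.097. IMPACT, an inhibitor of GCN2, was at 9.95, 10.5 and 9.50 FPKM in PANC-1 controls and at 21.2, 19.1 and 20.4 with knockdown (1.01, SE 0.0544, limma adjusted p = 9.45e-08). It was not called in the other lines, where MIA PaCa-2 had a change of 0.54 (limma adjusted p = 0.0602) that became a call at 0.31 (limma adjusted p = 0.000256) without shControl replicate 2. EIF2AK3, the kinase PERK of the endoplasmic reticulum, was the 1 kinase called lower, in PANC-1 at -0.71 (SE 0.0593, limma adjusted p = 2.48e-06). PRKRA, which activates the kinase PKR, had the smallest p of the list in PaTu 8988T, at 0.27 (SE 0.0464, limma adjusted p = 0.00184).

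The subunits of eIF2, eIF2B and the eIF2α phosphatase had different directions between lines. Of 12 genes, PANC-1 had 1 higher and 6 lower, beside 40.1% and 32.2% of all genes tested. MIA PaCa-2 had 0 and 6, beside 18.7% and 21.7%, and PaTu 8988T 7 and 0, beside 20.9% and 18.5%. At an unadjusted p under 0.05 the limma fits still had 0 higher in MIA PaCa-2, and 1 lower in PaTu 8988T (PPP1CB, -0.21, SE 0.0834). Without shControl replicate 2, MIA PaCa-2 had 1 higher and 10 lower, beside 35.4% and 39.8% of all genes. EIF2B3, a subunit of the exchange factor, was lower in MIA PaCa-2 at -0.36 (SE 0.0774, limma adjusted p = 0.0116, or 0.0677 and 0.065 without shOFD1 replicate 1 or 3) and higher in PaTu 8988T at 0.26 (SE 0.0731, limma adjusted p = 0.0186, or 0.0556 to 0.0745 without shControl replicate 2 or 3 or shOFD1 replicate 3). EIF2S2, the beta subunit of eIF2, was higher in PaTu 8988T at 0.34 (SE 0.0317, limma adjusted p = 4.98e-05) and stood at -0.12 in MIA PaCa-2 (SE 0.066, limma adjusted p = 0.201), where it was called lower at -0.16 (limma adjusted p = 0.000264) without shControl replicate 2. PPP1CB, a catalytic subunit of phosphatase 1, was lower in PANC-1 at -0.80 (SE 0.0393, limma adjusted p = 4.84e-08) and, without shControl replicate 2, in MIA PaCa-2 at -0.74 (limma adjusted p = 5.24e-07, against -0.43 and 0.211 with it). PPP1R15B, the constitutive counterpart of PPP1R15A, was called lower at -0.57 (PANC-1) and -0.58 (MIA PaCa-2) and higher in PaTu 8988T at 0.33, whereas PPP1R15A was higher in all 3. The PPP1R15B call in MIA PaCa-2 had a limma adjusted p of 0.044 and was lost without shControl replicate 1 or 3 or any shOFD1 replicate, with limma adjusted p up to 0.132, and it reached 4.86e-06 without shControl replicate 2. The differences between lines were not tested.

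Among factors of ATF4 translation and turnover, 10 of 13 tested were higher and 2 lower in PANC-1, 3 and 2 in MIA PaCa-2 (6 and 5 without shControl replicate 2) and 5 and 2 in PaTu 8988T. EIF4G2, a translation initiation factor also called DAP5, fell from 580, 583 and 589 FPKM to 295, 294 and 294 in PANC-1, a log2 fold change of -0.99 (SE 0.0164, limma adjusted p = 4.47e-11). In MIA PaCa-2 EIF4G2 went from 339, 266 and 344 FPKM to 105, 106 and 106, a log2 fold change of -1.57 (SE 0.106, limma adjusted p = 0.000203). In PaTu 8988T the EIF4G2 change was 0.09 (SE 0.0422, limma adjusted p = 0.128), with overlapping groups. EIF1, which guards start codon choice, was higher in all lines, by 0.50, 0.66 and 0.43, with limma adjusted p of 3.28e-08, 0.000316 and 0.000109.

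The bZIP factors, the family from which ATF4, ATF3 and the C/EBP proteins draw their partners, were called in both directions, as genes in general were. In PANC-1 8 of 22 tested were higher and 11 lower, beside 40.1% and 32.2% of all genes tested. MIA PaCa-2 had 9 of 23 and 3, beside 18.7% and 21.7%, and PaTu 8988T 6 of 22 and 8, beside 20.9% and 18.5%. Without shControl replicate 2 the MIA PaCa-2 counts were 13 and 8, beside 35.4% and 39.8%. FOSB, counted as higher in MIA PaCa-2 with and without that library, had a mean of 0.978 FPKM in controls and 1.52 with knockdown. It passed the filter only through the shOFD1 libraries. FOSL1, an AP-1 subunit, went from 36.0, 40.4 and 38.5 FPKM to 10.5, 12.1 and 9.86 in PANC-1 (-1.81, SE 0.0727, limma adjusted p = 1.15e-08) and was also lower in PaTu 8988T (-0.76, SE 0.0471) and MIA PaCa-2 (-0.27, SE 0.0826). The MIA PaCa-2 call of FOSL1 (limma adjusted p = 0.0383) was lost without shControl replicate 3 or any shOFD1 replicate, with limma adjusted p up to 0.137, and under quantile normalization, where the change was -0.12. ATF6, a sensor of misfolded protein in the endoplasmic reticulum, was lower in all lines, by -1.58 (SE 0.0489) in PANC-1, -0.96 (SE 0.118) in MIA PaCa-2 and -0.39 (SE 0.0587) in PaTu 8988T. BATF3 in PANC-1 had a mean of 1.74 FPKM in controls and 0.635 with knockdown, a difference of -1.34 (SE 0.157), or -0.75 with a pseudocount of 1. It passed the filter through the group in which it was high, so its p is not given, though it is among the 11 counted as lower. In MIA PaCa-2 the largest changes were rises of MAFF (1.49, SE 0.153), a small Maf factor, of NFIL3 (1.41, SE 0.115) and of CEBPD (1.30, SE 0.199), with limma adjusted p of 0.000772, 0.000363 and 0.00314.

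The paralogues of the regulators were called in both directions, as genes in general were. Of 12, 8 passed the filter in PANC-1 (3 higher, 2 lower), 9 in MIA PaCa-2 (3 and 2, or 3 and 5 without shControl replicate 2) and 8 in PaTu 8988T (3 and 1). The shares of all genes tested were 40.1% and 32.2% in PANC-1 and 20.9% and 18.5% in PaTu 8988T. In MIA PaCa-2 they were 18.7% and 21.7%, or 35.4% and 39.8% without shControl replicate 2. CEBPD, the C/EBP-delta gene, was higher in all lines. It had 12.2, 14.2 and 13.6 FPKM and then 33.8, 32.4 and 31.2 in PANC-1 (1.28, SE 0.0587), and a change of 0.48 (SE 0.0411) in PaTu 8988T. CEBPA was lower in MIA PaCa-2 at -0.93 (SE 0.201, limma adjusted p = 0.0116, or 0.054 without shOFD1 replicate 3), stood at 0.05 in PaTu 8988T (limma adjusted p = 0.692) and was below the filter in PANC-1. CEBPZ, which shares the name but not the bZIP domain, had no call in any line, with changes of 0.07, -0.03 and 0.12, though it was called lower at -0.21 in MIA PaCa-2 without shControl replicate 2 (limma adjusted p = 0.000588). SESN1 was higher with SESN2 in PANC-1 (1.25, SE 0.0674) and MIA PaCa-2 (0.68, SE 0.136), and its change in PaTu 8988T was 0.13 (SE 0.0739, limma adjusted p = 0.19). SESN3, NUPR2 and CEBPE were not tested in any line. Only 11 of the 12 paralogues were found among the gene symbols, so not all of these were measured, and those found were below the filter.

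CHAC2, the second glutathione-degrading enzyme of its kind, was lower in PANC-1 at -0.38 (SE 0.103, limma adjusted p = 0.00767), where CHAC1 was higher. Its changes of -0.42 in MIA PaCa-2 (limma adjusted p = 0.221) and 0.38 in PaTu 8988T (limma adjusted p = 0.0953) were not called, while the former became -0.73 (limma adjusted p = 1.74e-06) without shControl replicate 2. TRIB2 was higher in PANC-1 at 0.22 and MIA PaCa-2 at 0.44, with limma adjusted p of 0.000721 and 0.00346, and TRIB1 was lower in PaTu 8988T at -0.45 (limma adjusted p = 0.0148), a call lost without shControl replicate 3 (limma adjusted p = 0.0614). TRIB1 changed by -0.04 in PANC-1 and 0.00718 in MIA PaCa-2, without a call. ATF5, the closest relative of ATF4 and likewise translated under stress, was higher in PaTu 8988T at 0.55 (SE 0.0463, limma adjusted p = 3.10e-05) and not called in PANC-1 (0.08, limma adjusted p = 0.078) or MIA PaCa-2 (-0.33, limma adjusted p = 0.195). ATF5 was called lower in MIA PaCa-2 without shControl replicate 2, at -0.10 (limma adjusted p = 0.00933).

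Of the further ATF4 and CHOP targets, 10 of 20 tested were higher and 7 lower in PANC-1, 12 of 18 and 0 in MIA PaCa-2 (15 and 1 without shControl replicate 2), and 7 of 17 and 3 in PaTu 8988T. In MIA PaCa-2 the count of lower genes was also 0 at an unadjusted p under 0.05 in the limma fit. The list medians of the log2 fold change were 0.121, 0.598 and 0.179. Of the 4 enzymes of serine and one-carbon metabolism on the list, PHGDH, SHMT2 and MTHFD2 were called higher in all lines. PSAT1 was called higher in MIA PaCa-2 (0.40, limma adjusted p = 0.0253, or up to 0.0977 without any 1 shOFD1 replicate) and PaTu 8988T (0.55, limma adjusted p = 6.97e-06), and stood at -0.04 in PANC-1 (limma adjusted p = 0.256, or 0.0353 and a call lower at -0.08 without shControl replicate 2). The SHMT2 call in PANC-1 (0.13, limma adjusted p = 0.0164) was lost without shControl replicate 1 or shOFD1 replicate 2, and that in MIA PaCa-2 (0.56, limma adjusted p = 0.0218) without any library but shControl replicate 2, with limma adjusted p up to 0.0774. PHGDH, the first enzyme of serine synthesis, was at 6.24, 8.78 and 6.47 FPKM in MIA PaCa-2 controls and at 17.5, 17.0 and 17.7 with knockdown (1.29, SE 0.142, limma adjusted p = 0.000957). ASNS, asparagine synthetase, was at 84.3, 87.7 and 89.8 FPKM in PANC-1 controls but at 0.640, 1.01 and 0.665 in MIA PaCa-2 controls, and there at 3.51, 3.13 and 3.05 with knockdown, a difference of 1.96 (SE 0.184), or 1.26 with a pseudocount of 1. ASNS passed the filter in MIA PaCa-2 only through the shOFD1 libraries, so its p is not given, though it is among the 12 counted as higher there. In PaTu 8988T ASNS was below the filter, at 0.117, 0.0526 and 0.109 FPKM in controls and 0.587, 0.588 and 0.460 with knockdown. BBC3, the death gene PUMA, was at 0.624, 2.16 and 1.03 FPKM and then at 6.49, 5.98 and 6.82 in MIA PaCa-2 (2.41, SE 0.383, limma adjusted p = 0.00371). Its control mean there was above 1 FPKM only with shControl replicate 2. Without that library the BBC3 control mean was 0.829 FPKM and the change 2.85 (SE 0.169). BBC3 then passed the filter only through the shOFD1 libraries, so its p without that library is not given, though it is among the 15 counted as higher.

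Other targets went down. SLC7A11, the cystine carrier, was lower in PANC-1 at -1.69 (SE 0.0722, limma adjusted p = 1.82e-08), as was ERO1A, an oxidase of the endoplasmic reticulum, at -1.08 (SE 0.0424, limma adjusted p = 9.94e-09). ERO1A was also lower in PaTu 8988T at -0.86 (SE 0.0545, limma adjusted p = 6.21e-06). In MIA PaCa-2 ERO1A stood at 0.38, not called (limma adjusted p = 0.124), and was called higher at 0.17 without shControl replicate 2 (limma adjusted p = 0.000622). In MIA PaCa-2 SLC7A11 had a mean of 0.909 FPKM in controls and 1.41 with knockdown, a difference of 0.635 that was not called. It passed the filter there only through the shOFD1 libraries, so its p is not given. In PaTu 8988T SLC7A11 stood at 0.27 (limma adjusted p = 0.0508), not called. Without MIA PaCa-2 shControl replicate 2 the control mean there was 1.09 FPKM, and SLC7A11 was called higher at 0.34 (limma adjusted p = 0.0222). Without PaTu 8988T shOFD1 replicate 2 it was called higher in PaTu 8988T at 0.41 (limma adjusted p = 0.000176). DDIT4, an inhibitor of mTORC1, was lower in PaTu 8988T at -1.03 (SE 0.0505, limma adjusted p = 1.81e-06) and PANC-1 at -0.27 (SE 0.0248) and higher in MIA PaCa-2 at 0.86 (SE 0.218, limma adjusted p = 0.0208). That MIA PaCa-2 call was lost without any library but shControl replicate 2, with limma adjusted p up to 0.0717, and the change was 1.13 without that one. Whether these changes differ between lines was not tested.

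How closely the regulators went together was described over the 18 libraries, after the log2 values of each line had been centred on the mean of the line. Pearson's r of each regulator with the mean of the other 9 ran from 0.79 for CHAC1 to 0.996 for SESN2, with ATF3 at 0.993 and ATF4 at 0.992. Next above CHAC1 were CEBPG and CEBPB at 0.822 and 0.823, then TRIB3 at 0.853 and NUPR1 at 0.908. These points share the split between shControl and shOFD1 and, within a line, the library, so the values describe these libraries and carry no p. The regulators were selected for rising across that split, so high r values among them follow from the selection and nothing is read from them. Of 9074 other genes with a mean of at least 1 FPKM in every line, those closest to the mean of the 10 regulators were CITED2 (r = 0.984), CARS1 (r = 0.982), SARS1 (r = 0.982), GADD45A (r = 0.981) and EIF1 (r = 0.974). CITED2 encodes a transcriptional coregulator, CARS1 and SARS1 the cysteine and serine tRNA ligases, and GADD45A a stress and growth arrest protein. CITED2 had log2 fold changes of 0.49 in PANC-1, 1.12 in MIA PaCa-2 and 0.45 in PaTu 8988T, and GADD45A at 0.54, 1.41 and 0.56.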

How the data were processed

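The authors deposited FPKM values for 18 libraries. Per the study's methods, reads were aligned with HISAT2 and counted with HTSeq-count. Versions, annotation and strandedness are not given in the sources used here, and the submitters' processing notes name hg38, GRCm38 and mm10. The labels and the methods name different library kits. Reads and gene lengths were recovered from the steps of the FPKM values for 15059 of 16308, 17792 of 20604 and 18118 of 21498 genes above 0 in PANC-1, MIA PaCa-2 and PaTu 8988T (tolerance 0.001). Within each line, log2(FPKM + 0.1) was fitted with limma 3.58.1 (R 4.3.3, eBayes with trend) for genes with a mean of at least 1 FPKM, with Benjamini-Hochberg adjustment over all of them. An exact permutation test of 3 against 3 cannot go below 0.1. Another pseudocount, filter and normalization, a replicate block and the removal of each library were tried, and the scripts were tested on simulated data. A planned test of control levels between lines was dropped because those values entered the selection. The members and lists were chosen with earlier results of these data known. Genes were named as the regulators, the tested paralogues, up to 3 per list and line past the fold threshold (otherwise the smallest p), and the 5 nearest in pattern. EIF2AK3, PSAT1 and the genes called in all 3 lines were added after their values were seen. Sequences are from RefSeq (GRCh38.p14) and positions from GENCODE on GRCh38.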

Additional observations from a re-analysis of the deposited data

Results flagged for a closer look

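Genes listed here are those named in the results that had all shOFD1 libraries on one side of the controls in 1 line and on the opposite side in another. Other genes of the pathway lists, EIF2S1, EIF2B2 and JUNB among them, met the same rule and are not listed. The difference between lines was not tested. SLC7A11 had a log2 fold change of -1.69 in PANC-1 and 0.635 in MIA PaCa-2, where its control mean of 0.909 FPKM was under the filter. ERO1A was at -1.08 in PANC-1, 0.375 in MIA PaCa-2 and -0.859 in PaTu 8988T. DDIT4 was at -0.269, 0.859 and -1.03 in the same order. MAFF was at -0.299 in PANC-1 and 1.49 in MIA PaCa-2. EIF2B3 was at -0.358 in MIA PaCa-2 and 0.263 in PaTu 8988T, and EIF2S2 at -0.117 and 0.345. ATF5 was at 0.0761 in PANC-1, -0.328 in MIA PaCa-2 and 0.545 in PaTu 8988T. PPP1R15B was at -0.566 in PANC-1, -0.577 in MIA PaCa-2 and 0.328 in PaTu 8988T. Without MIA PaCa-2 shControl replicate 2 the values in that line were 0.337 for SLC7A11, 0.17 for ERO1A, 1.13 for DDIT4, -0.158 for EIF2S2 and -0.105 for ATF5.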

How the results depend on the processing

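No called result reversed under any setting, and 220 of 240 recomputed values for the medians and counts stayed within the spread of replicates or within 1.5 times the reported count. With a pseudocount of 1 the median log2 fold change of the regulators became 1.06 in MIA PaCa-2 and 0.456 in PaTu 8988T, and quantile normalization gave 0.497 in PaTu 8988T. With a filter of 5 FPKM, 4 listed pathway genes were more than 2-fold higher in MIA PaCa-2 and 8 were called lower in PaTu 8988T, fewer genes being tested, and without a filter 2 were more than 2-fold higher in PaTu 8988T. Replicate numbers did not pair the samples (correlations of same-numbered deviations from -0.111 to 0.13), and with a replicate block 6 listed genes were lower in MIA PaCa-2 instead of 11, while PPP1R15B, EIF2AK4, EIF2B3, FOSL1, WARS1 and PSAT1 had no call there (limma adjusted p from 0.0516 to 0.0904). Leaving out 1 library at a time moved the regulators' median from 1.25 to 1.48 in MIA PaCa-2 and from 0.55 to 0.68 in PaTu 8988T. It moved the listed genes in MIA PaCa-2 from 20 to 43 higher, 3 to 26 lower and 1 to 2 more than 2-fold lower, the highest counts being those without shControl replicate 2, and those more than 2-fold lower in PaTu 8988T from 0 to 1. Without a filter the MIA PaCa-2 calls of OFD1 (limma adjusted p = 0.0504), FOSL1 (0.0527) and PPP1R15B (0.0773) and the PaTu 8988T calls of EIF2B3 (0.0559) and USP11 (0.0866) were lost. The TRIB1 call in PaTu 8988T was also lost without a filter (limma adjusted p = 0.0551) and under quantile normalization (limma adjusted p = 0.063). Among genes without a call, EIF4G2 (limma adjusted p = 0.0374) and CEBPZ (0.0218) in PaTu 8988T were called without shOFD1 replicate 2, CEBPZ in PANC-1 without shOFD1 replicate 2 (0.0354), and ATF5 in PANC-1 was called under quantile normalization (limma adjusted p = 0.0203) and CHAC2 in PaTu 8988T without shOFD1 replicate 2 (limma adjusted p = 0.000894). The cause was not tested.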
